A study of Mus musculus with 32 samples.

Results

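Gene expression was compared between fetal blood progenitors in which both copies of U2af1 were floxed and progenitors in which 1 copy was, each with the deleting Cre. The members are 6 of the 32 libraries of the series, chosen by their genotype, stage and batch labels. Of these, 3 came from embryos of genotype Vav1-Cre/U2af1(flox/flox), called homozygous deletion here (libraries 2, 3 and 4), and 3 from Vav1-Cre/U2af1(wt/flox) embryos, called heterozygous deletion (libraries 3, 4 and 5). All 6 were untreated, came from E14.5 fetal liver, and carried the label of batch A. The sort kept cells with cKit but without Sca1 or mature lineage markers. Both groups carry the Cre by genotype and differ in the second floxed allele; the level of Cre was not analysed here. Vav1-Cre is driven by regulatory sequence of a gene active in blood cells, so liver cells that never use that sequence keep their floxed alleles. The same batch held 3 libraries from Cre-negative U2af1(flox/flox) embryos (the flox controls, libraries 3, 4 and 5) and 1 library with Vav1-Cre alone. Their values are set beside those of the deletion groups, and the flox controls shared the fit. The labels do not say whether the libraries of a group came from separate embryos, so p-values measure the spread between these libraries, which may in part be technical. U2af1 itself was not analysed here, so no count checked the genotype labels.

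U2AF1 is the small subunit of the U2 auxiliary factor. It reads the AG dinucleotide at the 3' end of an intron, while its partner U2AF2 binds the pyrimidine tract beside it, and together they bring the U2 small nuclear ribonucleoprotein to the branch point. Fetal liver is the main site of blood formation at this stage, and its cKit-positive, Sca1-negative progenitors hold precursors of red cells, megakaryocytes, granulocytes and macrophages.

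Total counts were 58952338, 65052037 and 71251200 in the heterozygous libraries and 52096060, 64515259 and 34506688 in the homozygous libraries, so homozygous library 4 was the shallowest. Values below are counts per 1000000 (CPM) after TMM scaling, given for heterozygous libraries 3, 4 and 5 and homozygous libraries 2, 3 and 4 in that order. A signed value in brackets after a gene is its log2 fold change, homozygous against heterozygous, with its SE after the ± sign. A count of 0 in a homozygous library allows up to 0.0495 to 0.0896 CPM (3 counts), which covers counting error only. Of the sort markers, 6 were tested. The sorting receptor Kit was at 485, 518 and 535 CPM in heterozygous and 303, 276 and 229 CPM in homozygous libraries, beside 463, 548 and 549.8 CPM in the flox controls and 528 CPM with Vav1-Cre alone, and it fell (log2 fold change -0.93 ± 0.10, adjusted p = 8.22e-05). The homozygous libraries were all below every other library for Kit. Ptprc, the CD45 gene of blood cells, was at 156, 170.1 and 172 CPM in heterozygous and 151, 168 and 178 CPM in homozygous libraries (log2 fold change -0.0063 ± 0.11, adjusted p = 0.969). Once hepatocyte transcripts were a covariate, Ptprc was called lower (log2 fold change -0.30, adjusted p = 0.0201). The lineage marker Cd4 (-3.01) fell, and the granulocyte markers Ly6g (2.98) and Itgam (0.87) rose, the latter with no call (adjusted p = 0.104) once hepatocyte transcripts were a covariate. Cd3e and Cd8a had too few counts to be tested, and other markers of the sort are not reported here.

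Heterozygous library 3 stood apart from libraries 4 and 5 in hepatocyte transcripts. The summed level of 14 hepatocyte genes, of 16 listed, was 132, 53.2 and 57.1 CPM in heterozygous libraries 3, 4 and 5, 32.4, 19.3 and 12.8 CPM in the homozygous libraries and 107 to 693 CPM in the flox controls. None of these genes rose, and 6 fell, among them Alb, the albumin gene (log2 fold change -2.43 ± 0.72, adjusted p = 0.0191). Without heterozygous library 3, edgeR called 0 of the 14 genes (adjusted p = 0.0709 for Alb), 4 of them had an unadjusted p under 0.05, all lower, and the list median went from -1.96 to -1.21. Endothelial genes gave 1 rise and 6 falls among 10 tested, led by Cdh5 of vascular junctions (-2.22; adjusted p = 0.0843 with the hepatocyte score, the mean log2 CPM of the hepatocyte genes, as a covariate). Stromal genes gave 1 rise and 1 fall among 8 tested. The collagen gene Col1a2 was at 2.36, 3.51 and 3.48 CPM in heterozygous and 4.63, 4.87 and 4.57 CPM in homozygous libraries and was not called (adjusted p = 0.255). Stromal genes without heterozygous library 3 gave 0 rises and 1 fall. The part of these cells in the other results was not tested. The hepatocyte score was 2.46, 0.892 and 1.09 in heterozygous and 0.384, -0.647 and -1.22 in homozygous libraries, without overlap of the groups. With this covariate, effects of the deletion and of hepatocyte content can therefore not be told apart. In RNA from a bulk sort, fewer cells of a type and less RNA per cell cannot be told apart.

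Among the 12678 genes tested, 42.3% were called at an adjusted p under 0.05, 19.8% higher and 22.4% lower in the homozygous libraries, and the median log2 fold change of all genes was -0.05. At a change of at least 2-fold the calls were one-sided: 2.77% of genes were called higher and 8.58% lower. An unadjusted p under 0.05 was reached by 50.5% of the genes, and the values of both groups did not overlap at 53.2%. With so broad a change, the counts of each gene list below are read beside these shares. By comparison, 4 genes (0.0316%) were called between the heterozygous deletion and the flox control. In the plot of list members by log2 fold change, B-cell, T and NK cell, hepatocyte and macrophage genes lay farthest to the lower side and neutrophil granule genes farthest to the higher side.

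**Figure D1:**
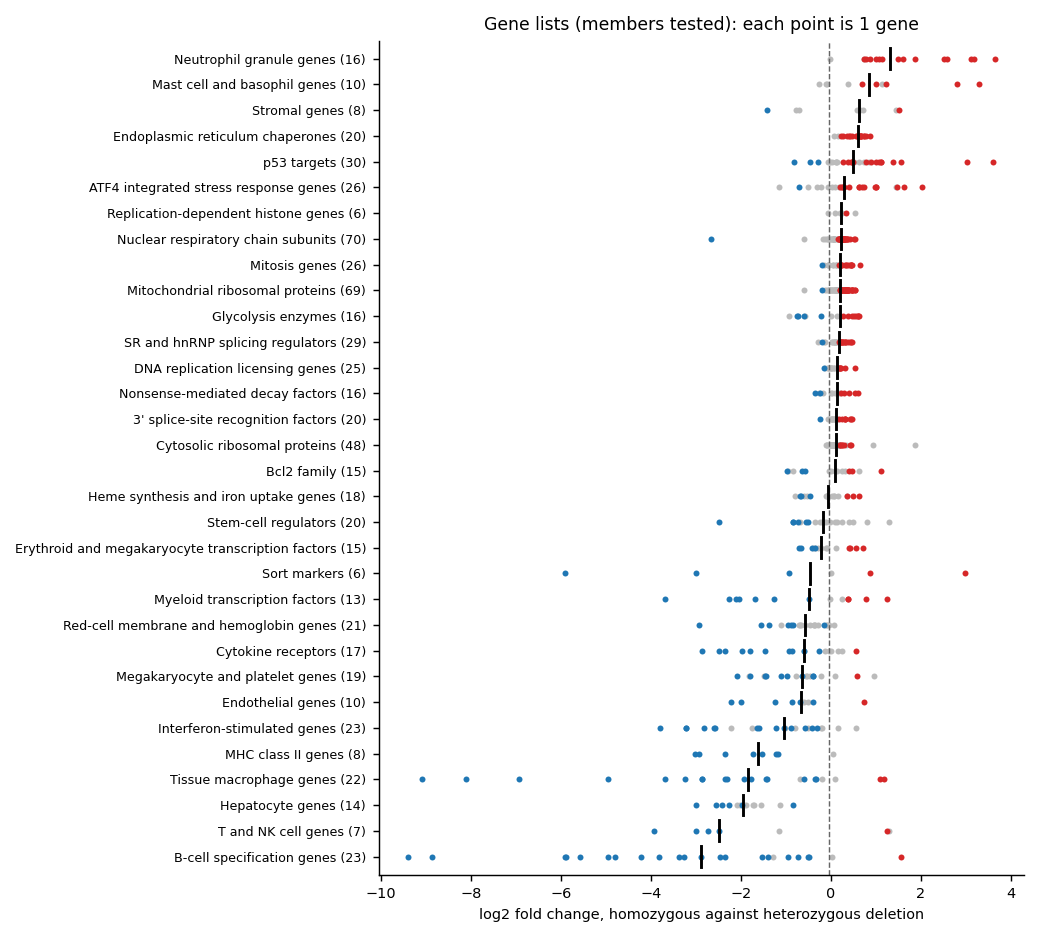
Log2 fold change of every tested list member, homozygous against heterozygous deletion (x axis), with 1 row per gene list and the number tested in brackets; red points were called higher, blue points lower, and grey points were not called. Black bars are list medians, from -2.89 for B-cell genes to 1.31 for neutrophil granule genes, and the dashed line is the median of all genes, -0.05.

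The B-cell programme fell almost as a whole. Of 31 listed genes, 24 were in the table and 23 were tested, 20 fell, 1 rose and 2 were not called, and the median log2 fold change was -2.89. Without heterozygous library 3, 19 fell and 1 rose. Pax5, the factor that commits progenitors to the B lineage (chr4:44524757-44710487, minus strand), was at 23.4, 22.1 and 16.9 CPM in heterozygous and 0.0406, 0.0330 and 0.0597 CPM in homozygous libraries, beside 32.0, 10.9 and 13.3 CPM in the flox controls. The 3 homozygous libraries together held 6 Pax5 counts, against 4154 in the heterozygous libraries (log2 fold change -8.88 ± 0.62, adjusted p = 7.39e-06). The surface receptor genes followed. Cd79a, a signalling chain of the B-cell receptor, was at 11.2, 10.3 and 5.52 CPM in heterozygous and 0.629, 0.198 and 0.687 CPM in homozygous libraries (log2 fold change -4.22 ± 0.57, adjusted p = 0.000247). The interleukin 7 receptor gene Il7r, needed by early B cells, was at 12.2, 11.4 and 10.6 CPM in heterozygous and 2.05, 1.85 and 2.84 CPM in homozygous libraries (log2 fold change -2.36 ± 0.30, adjusted p = 0.000181). No value of either gene overlapped between groups.

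Genes for antigen receptor assembly and signalling fell as well. Rag2, a subunit of the recombinase that joins receptor gene segments, changed by -3.38 ± 0.33 (adjusted p = 4.54e-05), Cd22 by -5.59 ± 0.58 (adjusted p = 5.83e-05), and the kinase gene Blk by -4.97 ± 0.80 (adjusted p = 0.000734). Vpreb3, a chaperone of the receptor's light chain, had 602 counts in the heterozygous and 7 in the homozygous libraries (log2 fold change -5.90 ± 0.58, adjusted p = 4.79e-05). The coactivator gene Pou2af1 had 1232 and 1 counts, a ratio of 874 after scaling with a 95% counting interval from 157 to 34541. Transcription factors with wider use gave a range of values. Tcf3, which encodes the E proteins E12 and E47, was at 376, 344 and 359 CPM in heterozygous and 256, 257 and 245 CPM in homozygous libraries (log2 fold change -0.51 ± 0.057, adjusted p = 8.65e-05). Foxo1 changed by -0.72 and Bach2, a repressor of the myeloid programme in B-cell precursors, by -2.47. Ikzf1, the Ikaros gene, was at 485, 489 and 489 CPM in heterozygous and 489, 512 and 479 CPM in homozygous libraries (log2 fold change 0.016 ± 0.049, adjusted p = 0.818). Its relative Ikzf3 was the single riser, at 8.31, 10.5 and 9.19 CPM in heterozygous and 21.3, 31.3 and 29.6 CPM in homozygous libraries (log2 fold change 1.56 ± 0.21, adjusted p = 0.000248), with every homozygous library above all others of the batch. Many genes named here overlap others annotated on the same strand, among them Pax5 (Mir5120), Pou2af1 (Gm47828), Cx3cr1 (Csrnp1) and Irf9 (Rnf31), and reads of such pairs cannot be told apart.

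**Figure D2:**
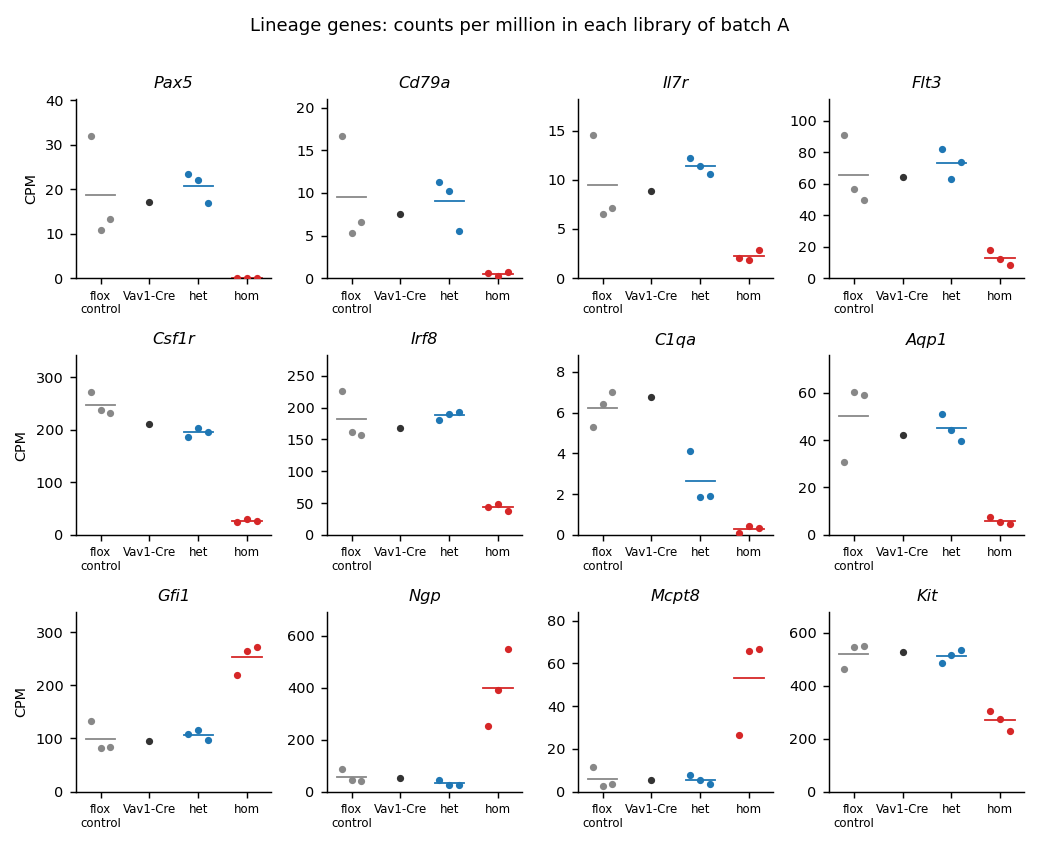
Expression of 12 lineage genes in CPM (y axes, starting at 0) in each library of batch A, grouped as flox control, Vav1-Cre alone, heterozygous (het) and homozygous (hom) deletion; points are libraries and lines are group means. The homozygous libraries lie below all others for Pax5, Cd79a, Il7r, Flt3, Csf1r, Irf8, C1qa, Aqp1 and Kit, and above all others for Gfi1, Ngp and Mcpt8.

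Macrophage and monocyte genes fell. Among 22 tested macrophage genes of 25 listed, 17 fell and 2 rose (median -1.86), and without heterozygous library 3, 16 fell and 2 rose (median -1.48). Csf1r, the receptor for macrophage colony-stimulating factor, was at 186, 203 and 196 CPM in heterozygous and 24.1, 29.9 and 26.0 CPM in homozygous libraries, beside 273, 237 and 231 CPM in the flox controls, and had the smallest adjusted p of all genes (log2 fold change -2.87 ± 0.094, adjusted p = 1.29e-07). Cx3cr1, a chemokine receptor of monocytes, was at 33.4, 38.0 and 37.6 CPM in heterozygous and 5.97, 5.31 and 3.41 CPM in homozygous libraries (log2 fold change -2.87 ± 0.16, adjusted p = 2.54e-06). Heterozygous library 3 was the lowest of its group for both genes. C1qa and Marco, genes of mature tissue macrophages, were higher in heterozygous library 3 than in 4 and 5. The complement gene C1qa was at 4.11, 1.86 and 1.92 CPM in heterozygous and 0.0812, 0.412 and 0.329 CPM in homozygous libraries (log2 fold change -3.24 ± 0.48, adjusted p = 0.00042), and without library 3 its adjusted p was 0.000991. Marco, a scavenger receptor, had 865 counts against 2, a ratio of 307 with a counting interval from 84.7 to 2537. The risers were Vcam1, an adhesion molecule of erythroblastic island macrophages (16.2, 16.0 and 13.6 CPM in heterozygous and 25.6, 37.2 and 35.2 CPM in homozygous libraries; log2 fold change 1.10 ± 0.14, adjusted p = 0.000229), and the iron exporter gene Slc40a1 (23.2, 19.3 and 16.1 CPM in heterozygous and 34.1, 51.0 and 48.1 CPM in homozygous libraries; log2 fold change 1.18 ± 0.17, adjusted p = 0.000379). Apoe, a lipid carrier gene, was among the 5 genes with the largest loss of CPM, at 722, 706 and 686 CPM in heterozygous and 309, 247 and 218 CPM in homozygous libraries (log2 fold change -1.45 ± 0.10, adjusted p = 8.45e-06).

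The transcription factors of the myeloid list moved in both directions. Of 13 tested, 7 fell and 4 rose. The factors of monocytes and dendritic cells fell: Irf8 was at 180.0, 190.1 and 193 CPM in heterozygous and 44.3, 48.5 and 37.7 CPM in homozygous libraries (log2 fold change -2.11 ± 0.14, adjusted p = 5.14e-06), and Klf4, Irf5, Zeb2 and Batf3 changed by -2.27, -2.04, -1.27 and -3.68. Gfi1, a repressor that favours granulocytes over monocytes, rose from 107, 115 and 97.6 CPM in the heterozygous libraries to 219.5, 265 and 272 CPM in the homozygous libraries (log2 fold change 1.24 ± 0.17, adjusted p = 0.000265). Spi1 and Cebpa, used by both lineages, changed by 0.37 and 0.38 and were called, but each call was lost when 1 of several libraries was left out (up to adjusted p = 0.0709 without heterozygous library 5 for Spi1 and adjusted p = 0.101 without homozygous library 3 for Cebpa). Both calls were also lost with the hepatocyte covariate (adjusted p = 0.343 for Spi1 and 0.391 for Cebpa). Genes of antigen presentation were lower too, with falls at 7 of 8 MHC class II pathway genes and rises at 0 (median -1.63). The lysosomal protease gene Ctss was at 15.6, 13.6 and 12.7 CPM in heterozygous and 2.34, 2.97 and 2.81 CPM in homozygous libraries (log2 fold change -2.37 ± 0.17, adjusted p = 7.5e-06). H2-Oa, an inhibitor of peptide loading, was not called, at 5.41, 5.83 and 5.22 CPM in heterozygous and 4.63, 6.61 and 5.68 CPM in homozygous libraries.

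Neutrophil granule genes rose. Of 16 tested, 14 rose, 0 fell and 2 were not called, with a median of 1.31. With the hepatocyte covariate, 9 rose and 0 fell. Ngp, a secondary granule protein gene, was at 43.6, 25.0 and 26.6 CPM in heterozygous and 250.4, 391 and 549 CPM in homozygous libraries, beside 88.0, 42.9 and 38.6 CPM in the flox controls (log2 fold change 3.65 ± 0.39, adjusted p = 6.56e-05). Ltf, the lactoferrin gene, was at 22.4, 7.23 and 8.97 CPM in heterozygous and 74.8, 141 and 133 CPM in homozygous libraries (log2 fold change 3.18 ± 0.39, adjusted p = 0.000157), and Lcn2 and Camp changed by 3.11 and 2.57. For all 4, homozygous library 2 was the lowest of its group and still above every other library. Mpo, the myeloperoxidase gene of the primary granules, was at 13332, 13409 and 12008 CPM in heterozygous and 11845, 13021 and 13158 CPM in homozygous libraries, with no call (log2 fold change -0.027 ± 0.13, adjusted p = 0.882), and the serine protease gene Ctsg rose by 0.99 (adjusted p = 0.000639). Elane rose by 0.73, a call that was lost without any of 3 libraries (up to adjusted p = 0.0665 without heterozygous library 5) and with the hepatocyte covariate (adjusted p = 0.305). Mast cell and basophil genes gave 5 rises and 0 falls among 10 tested (median 0.84), and 3 rises and 2 falls with the hepatocyte covariate. Mcpt8, a basophil protease gene, was at 7.58, 5.17 and 3.48 CPM in heterozygous and 26.3, 65.7 and 66.8 CPM in homozygous libraries (log2 fold change 3.30 ± 0.54, adjusted p = 0.000815), and Il1rl1, the receptor for interleukin 33, was at 32.6, 38.1 and 37.5 CPM in heterozygous and 55.1, 76.7 and 83.9 CPM in homozygous libraries (log2 fold change 0.99 ± 0.13, adjusted p = 0.000248). Cpa3, a mast cell protease gene, was at 53.6, 62.4 and 61.0 CPM in heterozygous and 46.5, 58.7 and 58.5 CPM in homozygous libraries and was not called. With the hepatocyte covariate Cpa3 was called lower (log2 fold change -0.43, adjusted p = 0.00754). Prg2, the major basic protein gene of eosinophils, gained among the most CPM, at 457, 562 and 399 CPM in heterozygous and 1222, 1692 and 1295 CPM in homozygous libraries (log2 fold change 1.57 ± 0.37, adjusted p = 0.00624; 0.0903 with the hepatocyte covariate).

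The difference in red-cell genes between the deletion groups depended on heterozygous library 3. Of 21 tested, 7 fell and 0 rose (median -0.58), and without library 3, 3 fell and 3 rose (median -0.13). With the hepatocyte score as a covariate the median was 0.19, with 2 falls. Against the flox controls, 13 of the 21 genes were called in the homozygous and 0 in the heterozygous libraries (medians -1.26 and -0.57). The summed level of the list was 1538, 2554 and 2505 CPM in the flox controls. It was 2232, 1305 and 1323 CPM in the heterozygous and 1229.5, 1195 and 1171 CPM in the homozygous libraries. Heterozygous library 3 thus lay within the control range, and libraries 4 and 5 below it. Slc4a1, the anion exchanger of the red-cell membrane, shows this spread, at 361, 79.1 and 88.1 CPM in heterozygous and 145, 127 and 141 CPM in homozygous libraries: the homozygous libraries lay between heterozygous library 3 and the other two (log2 fold change -0.36 ± 0.46, adjusted p = 0.568). Without library 3, Slc4a1 was higher in the homozygous libraries (log2 fold change 0.72, adjusted p = 0.00176). Aqp1, the water channel of red cells, fell with every setting, at 51.0, 44.4 and 39.7 CPM in heterozygous and 7.47, 5.28 and 4.72 CPM in homozygous libraries (log2 fold change -2.94 ± 0.26, adjusted p = 2.94e-05; 0.000142 without library 3). Trim58, a ubiquitin ligase of late erythroblasts, was at 9.41, 9.05 and 10.3 CPM in heterozygous and 4.55, 3.53 and 2.90 CPM in homozygous libraries (log2 fold change -1.39 ± 0.24, adjusted p = 0.00118). The homozygous values of Aqp1 and Trim58 were below all other libraries. Ermap, an erythroblast membrane gene, changed by -1.56 (adjusted p = 0.00382; 0.0144 without library 3), and lost its call with the hepatocyte covariate (adjusted p = 0.114).

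Regulators of the erythroid and megakaryocyte lineages moved in both directions, 4 up and 4 down among 15 tested. These are 26.7% each, near the 19.8% higher and 22.4% lower of all genes. Gata2, the factor of early progenitors, was at 323, 329.6 and 345 CPM in heterozygous and 476, 487 and 505 CPM in homozygous libraries (log2 fold change 0.56 ± 0.053, adjusted p = 3.99e-05). Gata1, which follows it in red-cell precursors, was at 114, 105 and 105 CPM in heterozygous and 104, 106 and 94.9 CPM in homozygous libraries and was not called (adjusted p = 0.739). Bcl11a, the repressor of fetal globin, changed by -0.72 ± 0.092 and Ldb1, the bridging factor of the Gata1 complex, by -0.67 ± 0.081. Heme synthesis and iron genes gave 3 rises and 3 falls among 18 tested (16.7% each, below the shares of all genes), and 6 and 2 without heterozygous library 3. The ubiquitous first enzyme gene Alas1 rose by 0.62 ± 0.15 and the decarboxylase gene Urod changed by -0.67 ± 0.17. Both calls were lost with the hepatocyte covariate (adjusted p = 0.121 and 0.2), and that of Urod also with the replicate block (adjusted p = 0.0832). Megakaryocyte and platelet genes fell at 9 of 19 tested and 1 rose. Vwf, the von Willebrand factor gene, was at 17.7, 15.8 and 14.3 CPM in heterozygous and 3.57, 2.47 and 5.44 CPM in homozygous libraries (log2 fold change -2.08 ± 0.33, adjusted p = 0.000698). In contrast Pf4, a platelet granule gene, was at 12.1, 4.24 and 4.06 CPM in heterozygous and 6.66, 4.21 and 6.69 CPM in homozygous libraries and was not called.

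Beside Kit, Csf1r and Il7r, other receptors of early progenitors were lower. Of 17 cytokine receptors tested, 10 fell and 1 rose (median -0.61). Flt3, a receptor of lymphoid-primed progenitors, was at 82.0, 62.9 and 73.5 CPM in heterozygous and 18.0, 12.1 and 8.33 CPM in homozygous libraries (log2 fold change -2.50 ± 0.28, adjusted p = 8.82e-05). Il6st, the shared signalling chain of the interleukin 6 family, was at 50.9, 67.9 and 71.1 CPM in heterozygous and 18.7, 18.3 and 17.2 CPM in homozygous libraries (log2 fold change -1.81 ± 0.11, adjusted p = 3.84e-06), and Il1r1 changed by -1.99. Csf3r, the neutrophil growth factor receptor, was at 146, 156 and 141 CPM in heterozygous and 139, 141 and 164 CPM in homozygous libraries and Ifngr1, a receptor of interferon gamma, at 258, 273 and 256 CPM in heterozygous and 289, 303 and 339 CPM in homozygous libraries, neither called. The riser was Cxcr4 (0.56), and it was no longer called when any of 4 libraries was left out (up to adjusted p = 0.0659 without homozygous library 4). Its call was also lost with the hepatocyte covariate (adjusted p = 0.395). Stem-cell regulators gave 6 falls and 0 rises among 20 tested, and 5 falls and 1 rise without heterozygous library 3. Cd34 was at 436, 432 and 458 CPM in heterozygous and 329, 264 and 203 CPM in homozygous libraries (log2 fold change -0.73 ± 0.14, adjusted p = 0.00176) and Meis1, a homeobox factor of stem cells, at 82.5, 91.8 and 98.6 CPM in heterozygous and 66.0, 42.0 and 44.2 CPM in homozygous libraries (log2 fold change -0.84 ± 0.15, adjusted p = 0.0011). Mecom, a stem-cell factor that was highest in homozygous library 2, was at 3.41, 1.27 and 1.53 CPM in heterozygous and 8.65, 3.07 and 3.47 CPM in homozygous libraries and was not called (log2 fold change 1.29 ± 0.49, adjusted p = 0.0563). Without heterozygous library 3 Mecom was called higher (1.85, adjusted p = 0.0182). Kit, Flt3 and Cd34 were at their lowest in homozygous library 4.

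Genes of the factors that recognise the 3' splice site gave more rises than falls. Of 20 tested, 8 rose, 1 fell and 11 were not called, with a median of 0.11. U2af2, the partner of the deleted gene (chr7:5062143-5079938, plus strand), was at 447, 473 and 458 CPM in the flox controls, 446 CPM with Vav1-Cre alone, 631, 599 and 599 CPM in the heterozygous libraries and 766, 737 and 671 CPM in the homozygous libraries. The heterozygous values lay above all controls and below all homozygous values, and the rise from heterozygous to homozygous was called (log2 fold change 0.25 ± 0.060, adjusted p = 0.00717). The heterozygous libraries were 0.41 ± 0.060 (SE, log2) above the flox controls (adjusted p = 0.0947). Sf1, the branch-point binding protein gene, had the same order, at 723, 724 and 743 CPM in the flox controls, 866, 831 and 832 CPM in the heterozygous and 1126, 1002 and 992 CPM in the homozygous libraries (log2 fold change 0.30 ± 0.060, adjusted p = 0.00239). So had Rbm39, a U2AF2-related gene, at 295, 277 and 275 CPM in the flox controls, 333, 347 and 354 CPM in the heterozygous and 473, 494 and 435 CPM in the homozygous libraries (log2 fold change 0.44 ± 0.061, adjusted p = 0.000292). The heterozygous step was not called for Sf1 (adjusted p = 0.37) or Rbm39 (adjusted p = 0.353), and both comparisons share the heterozygous libraries.

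Other factors were at control level in the heterozygous libraries. Dhx15, a helicase that takes spliceosomes apart, was at 347, 338 and 342 CPM in heterozygous and 499, 469.9 and 439 CPM in homozygous libraries, beside 349.5, 362 and 350.1 CPM in the flox controls (log2 fold change 0.46 ± 0.056, adjusted p = 0.000159). Sf3b1, the branch-site subunit of U2, changed by 0.31 ± 0.066 and Srsf2, an exon-binding regulator, by 0.31 ± 0.056. The U2af1 relative Zrsr1, an autosomal copy of Zrsr2, was at 9.21, 9.79 and 10.5 CPM in heterozygous and 13.8, 12.1 and 13.8 CPM in homozygous libraries (log2 fold change 0.43 ± 0.11, adjusted p = 0.0104), and Zrsr2 was at 39.4, 41.4 and 39.4 CPM in heterozygous and 46.7, 38.4 and 43.3 CPM in homozygous libraries with no call. The call of Zrsr1 was lost with the hepatocyte covariate (adjusted p = 0.123) and with the replicate block (adjusted p = 0.0619). Reads shared between these near copies could not be apportioned here. Sugp1, a G-patch partner of U2, was the single faller, at 70.8, 68.3 and 67.2 CPM in heterozygous and 56.8, 58.7 and 58.9 CPM in homozygous libraries (log2 fold change -0.24 ± 0.060, adjusted p = 0.00801). Among SR and hnRNP regulators 15 of 29 tested rose and 1 fell (median 0.17; 16 and 0 without heterozygous library 3), with Hnrnpll (0.48 ± 0.054), Ptbp3 (0.42 ± 0.056) and Srsf1 (0.37 ± 0.067) among the largest. Without homozygous library 2, 11 of these regulators rose and 0 fell, and with the replicate block 10 rose and 1 fell. Nonsense-mediated decay factors gave 5 rises and 2 falls among 16 tested, led by Smg8, a regulator of the decay kinase (0.60 ± 0.074, adjusted p = 0.000157).

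**Figure D3:**
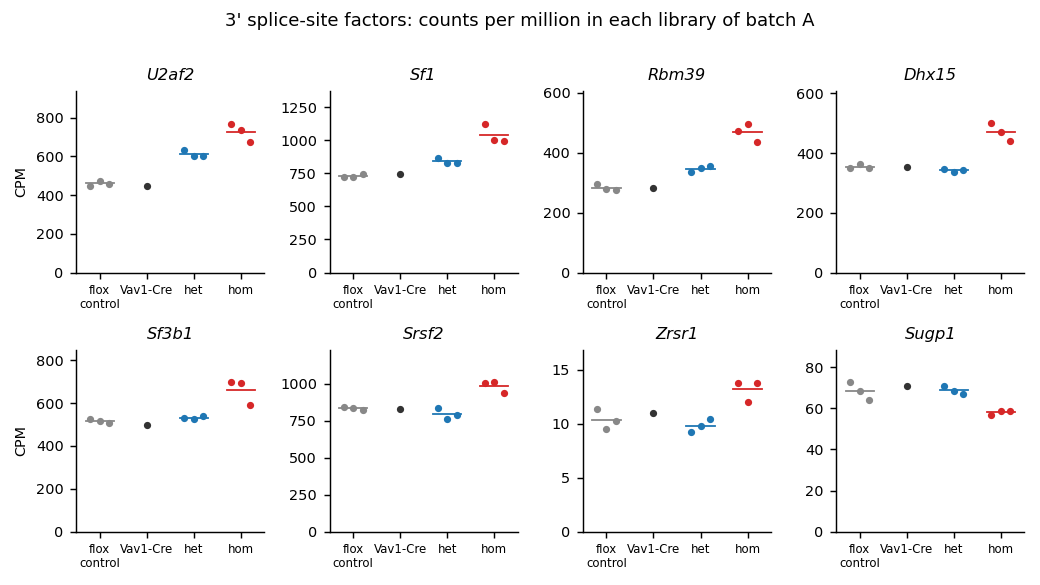
CPM (y axes, starting at 0) of 8 genes of 3' splice-site recognition in each library of batch A; points are libraries and lines are group means. U2af2, Sf1 and Rbm39 are higher in the heterozygous (het) than in the control libraries and highest in the homozygous (hom) libraries, Dhx15, Sf3b1, Srsf2 and Zrsr1 have higher values in the homozygous libraries, a difference not called for Zrsr1 with the hepatocyte covariate or the replicate block, and Sugp1 is lowered there.

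Many p53 targets rose. Of 30 tested, 15 rose, 3 fell and 12 were not called, with a median of 0.48, or 0.37 without homozygous library 2, which again left 15 rises. Cdkn1a, the cell-cycle inhibitor p21, was at 25.5, 18.9 and 17.3 CPM in heterozygous and 69.6, 45.3 and 45.5 CPM in homozygous libraries (log2 fold change 1.38 ± 0.30, adjusted p = 0.00438). Eda2r, a death-domain receptor, was at 0.133, 0.413 and 0.538 CPM in heterozygous and 5.67, 1.65 and 1.58 CPM in homozygous libraries (log2 fold change 3.02 ± 0.62, adjusted p = 0.00278), and Phlda3, an inhibitor of Akt signalling, at 3.90, 3.25 and 4.56 CPM in heterozygous and 18.0, 9.60 and 6.66 CPM in homozygous libraries (log2 fold change 1.55 ± 0.31, adjusted p = 0.00224). In these 3 genes homozygous library 2 was the highest and all homozygous values lay above all heterozygous ones. Perp, a membrane gene of p53-dependent death, was even across the group, at 31.2, 34.4 and 32.6 CPM in heterozygous and 68.5, 73.4 and 70.8 CPM in homozygous libraries (log2 fold change 1.12 ± 0.062, adjusted p = 2.12e-06). The feedback ubiquitin ligase gene Mdm2 changed by 0.38 ± 0.070 and Ccng1 by 0.44 ± 0.064. The list did not move as a unit, since the nutrient-stress gene Sesn1 (-0.46; adjusted p = 0.0692 without homozygous library 3), Pidd1 (-0.28) and Dcxr (-0.82) fell, and the repair genes Xpc and Ddb2 were not called (adjusted p = 0.287 and 0.786). Of 15 Bcl2 family genes tested, 3 rose and 3 fell. These are 20% each, near the 19.8% higher and 22.4% lower of all genes. The death genes Bbc3 (1.11 ± 0.24), Bax (0.47 ± 0.065) and Bid (0.40 ± 0.078) rose. The death genes Bcl2l11, the Bim gene (-0.64 ± 0.12), and Bmf (-0.57 ± 0.20; adjusted p = 0.131 without heterozygous library 5) fell, as did Bcl2l14 (-0.99 ± 0.26; adjusted p = 0.0106). The call of Bmf was lost in 6 of the 9 fits that each left out 1 library. The survival genes Mcl1 (211, 195 and 197 against 213, 212 and 217 CPM) and Bcl2l1 were not called.

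Chaperones of the endoplasmic reticulum rose nearly without exception. These proteins fold secreted and membrane proteins, and their genes are induced by the unfolded protein response. Of 20 tested, 18 rose and 0 fell, with a median of 0.60. Hsp90b1, the GRP94 gene, was at 1152, 1090.2 and 1011 CPM in heterozygous and 1975, 1964 and 2019.7 CPM in homozygous libraries (log2 fold change 0.87 ± 0.087, adjusted p = 4.95e-05). Hspa5, the BiP gene, was at 1421, 1152 and 1001 CPM in heterozygous and 1984, 1963 and 1754 CPM in homozygous libraries (log2 fold change 0.67 ± 0.14, adjusted p = 0.0029), and the lectin chaperone gene Calr at 3688, 3509.7 and 3169 CPM in heterozygous and 5238, 5048 and 5263 CPM in homozygous libraries (log2 fold change 0.58 ± 0.089, adjusted p = 0.000513). For each of the 3, every homozygous library exceeded every other library of the batch. The co-chaperone genes Sdf2l1, Dnajb11 and Dnajc3 changed by 0.78, 0.67 and 0.64. The exceptions were Dnajb9, at 26.5, 20.6 and 18.7 CPM in heterozygous and 24.9, 20.2 and 28.6 CPM in homozygous libraries, and Derl3, at 1.45, 1.27 and 1.02 CPM in heterozygous and 1.08, 1.27 and 1.61 CPM in homozygous libraries. Pdia6 (0.28 ± 0.10) and Syvn1 (0.23 ± 0.068) were called in the full set of libraries and lost the call when single libraries were left out (up to adjusted p = 0.153 without heterozygous library 5 for Pdia6 and adjusted p = 0.0877 without heterozygous library 5 for Syvn1). Both also lost it with the hepatocyte covariate (adjusted p = 0.351 for Pdia6 and 0.0966 for Syvn1).

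Several of these promoters hold a known element. The endoplasmic reticulum stress element, CCAAT followed after 9 bases of any kind by CCACG, is the site of ATF6 with NF-Y. Searched on both strands, where the reverse reads CGTGG, 9 bases and ATTGG, it occurred in the window from 250 bases before to 50 bases after a RefSeq start (GRCm38.p6) of 37 of 27025 genes (0.137%). Of the 18 chaperone genes with a promoter entry, 9 held it, and 8 of these 9 rose. Of the 9 without it, 8 rose as well. The element was looked up after the rise had been seen. Shown are 150 bases from the 250 before the start of 5 genes that rose, 5' to 3' on the gene's strand, with the fixed letters of the element in capitals.

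Hspa5, chr2:34771940-34772089, plus strand: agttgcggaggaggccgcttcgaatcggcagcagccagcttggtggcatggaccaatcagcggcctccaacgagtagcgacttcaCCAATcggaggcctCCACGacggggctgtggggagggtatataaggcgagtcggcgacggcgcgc
Hsp90b1, chr10:86705537-86705686, minus strand: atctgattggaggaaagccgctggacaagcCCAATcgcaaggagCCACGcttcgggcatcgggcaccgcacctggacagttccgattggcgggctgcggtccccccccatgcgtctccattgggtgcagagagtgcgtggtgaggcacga
Canx, chr11:50325699-50325848, minus strand: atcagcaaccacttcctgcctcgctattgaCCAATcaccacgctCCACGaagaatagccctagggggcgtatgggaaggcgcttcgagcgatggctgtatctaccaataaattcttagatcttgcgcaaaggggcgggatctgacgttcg
Dnajc3, chr14:118937782-118937931, plus strand: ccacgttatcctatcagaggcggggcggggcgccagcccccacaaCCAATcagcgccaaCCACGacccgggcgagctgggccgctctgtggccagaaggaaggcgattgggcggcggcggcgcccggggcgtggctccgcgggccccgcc
Creld2, chr15:88819490-88819639, plus strand: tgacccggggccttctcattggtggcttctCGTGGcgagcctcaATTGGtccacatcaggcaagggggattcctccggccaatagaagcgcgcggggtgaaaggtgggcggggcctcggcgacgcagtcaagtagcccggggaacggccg

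Hspa5 changed by 0.67, Hsp90b1 by 0.87, Canx by 0.41, Dnajc3 by 0.64 and Creld2 by 0.74. The first 4 carry the element in the direction of the gene, with its end 46, 193, 126 and 86 bases before the start, and Creld2 carries it on the opposite strand, 107 bases before the start. In Hsp90b1 a second match lies outside the bases shown. No order of the changes by this distance was tested.

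Targets of ATF4, the factor of the integrated stress response that raises amino acid import and synthesis, rose at 15 of 26 tested and fell at 1 (median 0.28), with 11 rises without homozygous library 2 and a median of 0.44 without heterozygous library 3, at 15 rises. Atf4 itself was at 303, 258 and 243 CPM in heterozygous and 426, 419 and 392 CPM in homozygous libraries (log2 fold change 0.62 ± 0.090, adjusted p = 0.000377). Slc7a11, the cystine transporter, was at 5.56, 5.70 and 4.36 CPM in heterozygous and 17.5, 18.8 and 27.0 CPM in homozygous libraries (log2 fold change 2.02 ± 0.18, adjusted p = 2.95e-05). The one-carbon enzyme gene Mthfd2 was at 83.6, 75.9 and 76.5 CPM in heterozygous and 161, 158 and 146 CPM in homozygous libraries (log2 fold change 0.98 ± 0.076, adjusted p = 1.45e-05), and the serine synthesis gene Psat1 changed by 0.69 ± 0.081. Chac1, which breaks down glutathione, and the pseudokinase gene Trib3 changed by 1.63 ± 0.23 and 1.46 ± 0.20. Ddit3, the CHOP gene, was at 11.5, 8.48 and 7.21 CPM in heterozygous and 10.9, 10.6 and 10.2 CPM in homozygous libraries and was not called (adjusted p = 0.367). Pck2, a mitochondrial gluconeogenic enzyme gene, fell, at 65.4, 67.0 and 64.1 CPM in heterozygous and 41.4, 42.7 and 36.5 CPM in homozygous libraries (log2 fold change -0.70 ± 0.074, adjusted p = 6.37e-05). The core of the CEBP-ATF element, TGATGNAA, or TTNCATCA on the other strand, lay in promoters of 1219 of 27025 genes (4.51%) and of 9 of the 24 listed genes with an entry, of which 5 rose and 1 fell. Of the 15 without it, 9 rose. Windows of 150 bases, again from the 250 before the start, show the element, in capitals, in Slc7a11 (both strands), which rose, and in Pck2, which fell.

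Slc7a11, chr3:50443614-50443763, minus strand: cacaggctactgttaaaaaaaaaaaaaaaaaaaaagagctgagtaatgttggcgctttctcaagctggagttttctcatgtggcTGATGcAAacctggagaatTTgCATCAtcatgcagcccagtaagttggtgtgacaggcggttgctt
Pck2, chr14:55540116-55540265, plus strand: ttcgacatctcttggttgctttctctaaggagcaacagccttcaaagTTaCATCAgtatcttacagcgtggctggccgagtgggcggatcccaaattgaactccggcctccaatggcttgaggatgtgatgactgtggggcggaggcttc

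**Figure D4:**
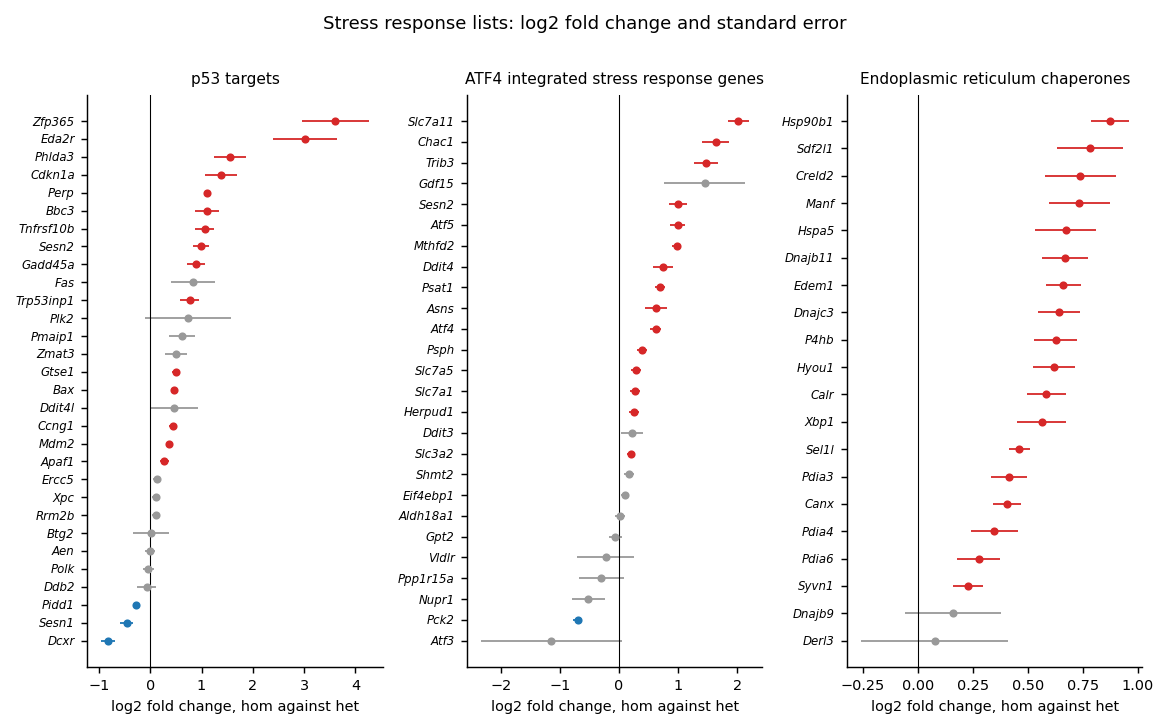
Log2 fold change with standard error (x axes), homozygous against heterozygous deletion, of each tested p53 target, ATF4 target and endoplasmic reticulum chaperone (rows); red was called higher, blue lower, grey not called. Chaperone genes form a narrow band up to 0.87, while p53 targets reach from -0.82 to 3.61.

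Interferon-stimulated genes were lower, with 14 falls and 0 rises among 23 tested (median -1.04). The antiviral gene Mx1 was at 0.966, 1.57 and 0.821 CPM in heterozygous and 0.102, 0.0495 and 0.0896 CPM in homozygous libraries (log2 fold change -3.81 ± 0.51, adjusted p = 0.000237). The transcription factor gene Irf9 was at 21.0, 24.7 and 21.3 CPM in heterozygous and 10.8, 11.1 and 10.6 CPM in homozygous libraries (log2 fold change -1.04 ± 0.12, adjusted p = 8.95e-05) and the membrane gene Ifitm3 at 45.8, 44.1 and 40.9 CPM in heterozygous and 22.0, 24.3 and 24.4 CPM in homozygous libraries (log2 fold change -0.89 ± 0.15, adjusted p = 0.00081), both below all other libraries of the batch. Ifit2, an antiviral gene, was at 9.56, 11.3 and 9.74 CPM in heterozygous and 9.73, 9.37 and 7.41 CPM in homozygous libraries and was not called (adjusted p = 0.228).

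Mitosis genes rose at 15 of 26 tested and fell at 1 (median 0.21). Plk1, a kinase of mitotic entry, was at 234, 237 and 226 CPM in heterozygous and 365, 371 and 345 CPM in homozygous libraries (log2 fold change 0.63 ± 0.052, adjusted p = 1.78e-05), and Cdc20, Ube2c and Ccnb1 changed by 0.48, 0.44 and 0.44. Mki67 was at 1548, 1727 and 1758 CPM in heterozygous and 1717, 1702 and 1788 CPM in homozygous libraries and was not called. DNA replication licensing genes gave 6 rises and 1 fall among 25 tested (8 and 2 without heterozygous library 3, 5 and 0 without homozygous library 2). The 6 rises are 24% of the list, beside 19.8% of all genes, and the 1 fall is 4%, beside 22.4%. The helicase subunit genes Mcm3 and Mcm6 were not called (adjusted p = 0.09 and 0.973). Nuclear genes of the respiratory chain rose at 41 of 70 tested and fell at 1 (median 0.22), and mitochondrial ribosomal protein genes rose at 34 of 69 and fell at 1 (median 0.21; 42 and 0 without heterozygous library 3). Respiratory chain genes gave 31 rises and 2 falls without homozygous library 2. They gave 26 and 1 with the hepatocyte covariate and 22 and 4 with the replicate block. Mitochondrial ribosomal protein genes gave 27 rises and 0 falls without homozygous library 2 and 25 and 1 with the replicate block. The changes were small, such as 0.54 ± 0.066 for the oxidase subunit gene Cox7a2 and 0.54 ± 0.058 for Mrpl41. Cox6a2, a muscle-type oxidase subunit gene, was the exception that fell (-2.66 ± 0.47). Cytosolic ribosomal protein genes rose at 7 of 48 tested and fell at 0, at 16 without heterozygous library 3 and at 2 without homozygous library 2. The 7 rises are 14.6% of the list, below the 19.8% of all genes called higher.

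Glycolysis genes gave 8 rises and 4 falls among 16 tested. The glucose transporter gene Slc2a3 was at 64.3, 61.8 and 64.3 CPM in heterozygous and 92.4, 103 and 98.6 CPM in homozygous libraries (log2 fold change 0.63 ± 0.070, adjusted p = 8.89e-05), and the isomerase gene Gpi1 and the pyruvate kinase gene Pkm changed by 0.59 ± 0.080 and 0.54 ± 0.076. The phosphofructokinase genes parted, with Pfkp at 0.61 ± 0.077 and Pfkm at -0.74 ± 0.10. Pdk1, a pyruvate dehydrogenase kinase gene, fell in steps, at 145, 153 and 155 CPM in the flox controls, 105, 107 and 115 CPM in the heterozygous and 62.4, 66.8 and 64.5 CPM in the homozygous libraries (log2 fold change -0.76 ± 0.059, adjusted p = 1.44e-05). It was 1 of the 4 genes called between heterozygous deletion and flox control (log2 fold change -0.47, adjusted p = 0.0278). The other 3 were Ctse, Ap1g2 and Commd10, chosen for mention by that call.

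Calls were also counted by the number of exons in the longest transcript of each protein-coding gene, since a gene with more introns has more 3' splice sites. The share called lower was 12.3% of 171 genes with 1 exon, 18.8% of 1798 with 2 to 4, 21.3% of 3510 with 5 to 9, 26.4% of 3691 with 10 to 19 and 34.5% of 1737 with 20 or more. The share called higher was 14.6%, 24.7%, 27.5%, 21.8% and 12.9% in the same order. Among calls of at least 2-fold the shares were closer, with 5.85%, 8.68%, 8.58%, 8.21% and 10.3% of each class lower and 1.75%, 4.34%, 2.96%, 2.55% and 2.25% higher. The median log2 fold change was -0.16 with 20 or more exons, from -0.19 to -0.14 over the 9 fits that each left out 1 library, and 0.04 with 1 exon, where leaving out homozygous library 2 gave -0.02. Transcript length and level rose with the classes too, from a median of 2052 to 5440 bases and from 1.57 to 61.2 CPM in the heterozygous libraries. The part of length and level in these shares was not tested.

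**Figure D5:**
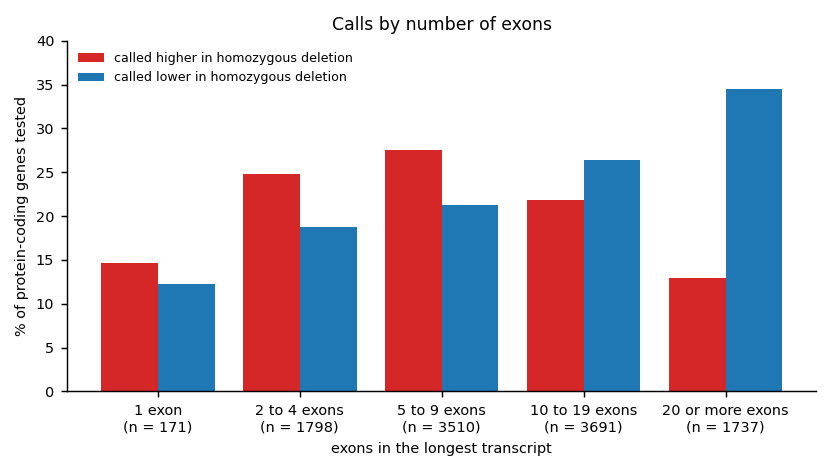
Share of tested protein-coding genes (y axis, %) called higher (red) or lower (blue) in the homozygous libraries, by number of exons in the longest transcript (x axis, with the number of genes). The share called lower grows from 12.3% to 34.5% across the classes, and the share called higher is greatest, 27.5%, at 5 to 9 exons.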

How the data were processed

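RNA of sorted fetal liver progenitors was sequenced after ribosomal RNA depletion as paired reads of 150 bases, per the labels' protocols. The values are raw counts per gene, deposited by the authors. The submitters' processing notes and design text name HISAT2 2.1.0 with GRCm38, and rMATS 4.1.0, whose splicing output was not used here. The counter, its strand setting and the annotation release are not given in the sources used here, so reads of overlapping or antisense genes cannot be told apart. The design text warns of batch effects among fetal samples, so only batch A was used.

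After filterByExpr and TMM scaling (trimmed mean of M values), the 3 fetal groups of 3 libraries were fitted together with edgeR 4.0.16 (R 4.3.3) quasi-likelihood tests, with Benjamini-Hochberg adjustment over all genes tested. Every adjusted p is from this test, called under 0.05. Unless named as a level, a value beside a gene is its log2 fold change, homozygous against heterozygous, ± its SE. No 2 libraries of a group agreed within sampling noise. Intervals at 95% and floors cover counting error only, since reads carry no molecular identifiers. Coordinates, exons and gene classes came from a GENCODE annotation of GRCm38, matched by gene identifier. The fit was tested on simulated counts. DESeq2 1.42.0 was an alternative.

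Named genes were the 10 largest rises and falls without overlap and with a mean of at least 50 counts, up to 4 called and 2 uncalled members per list, the 5 largest gains and losses of CPM, and any member of the B-cell, p53, splice-site, red-cell and sort lists. Other genes named were chosen after their values were seen. The members of the comparison, the lists and the motifs were chosen with earlier results of these data known. Lists carry no test. Some genes that the naming rule selects are not reported here.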

Additional observations from a re-analysis of the deposited data

How the results depend on the processing

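The 5358 calls became 5813 with DESeq2, 5443 with median-ratio factors, 5393 without genes over 1% of a library, 5328 with no filter, 5008 with a mean of at least 50 counts, 5367 with the 6 compared libraries alone and 4114 with the hepatocyte score as covariate, which shared 3652 of the original calls. Leaving out 1 library gave 4048 to 5979 calls, and 1210 to 1586 at 2-fold or more. At 2-fold or more, 1439 genes became 944 with the filter at 50 counts, which tested fewer genes. The share of higher genes among the calls was 46.9%, or 50.6% with DESeq2 or median-ratio factors. With the hepatocyte score as covariate, list medians were -3.36 for B-cell specification genes, 0.19 for red-cell membrane and hemoglobin genes, 0.11 for erythroid and megakaryocyte transcription factors, 0.27 for heme synthesis and iron uptake genes, -0.19 for megakaryocyte and platelet genes, -1.06 for myeloid transcription factors, 0.42 for mast cell and basophil genes, 0.48 for endoplasmic reticulum chaperones, -1.34 for interferon-stimulated genes, 0.19 for 3' splice-site recognition factors, 0.25 for SR and hnRNP splicing regulators, 0.19 for DNA replication licensing genes, 0.29 for glycolysis enzymes, 0.055 for hepatocyte genes and 0.28 for mitochondrial ribosomal proteins. The score is the mean of the hepatocyte genes, so the 0.055 of these same genes was fixed in advance by the fit. The compared groups also did not overlap in the score. With the filter at 50 counts medians were -0.27 for myeloid transcription factors, -1.18 for T and NK cell genes, -0.080 for stromal genes, -0.95 for sort markers and -0.24 for lincRNA genes. With the 6 libraries alone the median was -0.052 for stromal genes. DESeq2 gave 0.16 for nonsense-mediated decay factors, and median-ratio factors gave 0.16 for nonsense-mediated decay factors. Replicate numbers 3 and 4 occur in both groups, no label says that they pair libraries, and deviations of same-numbered libraries correlated at 0.0168 and 0.142 across genes. Number 2 occurs in homozygous library 2 alone, so with a block on the number that library adds nothing to the comparison. Such a block also leaves fewer degrees of freedom. With the number as a replicate block, 4325 genes were called (1336 at 2-fold or more), and medians that moved were -3.36 for B-cell specification genes, -0.054 for the Bcl2 family, -1.33 for interferon-stimulated genes, 0.063 for 3' splice-site recognition factors, -1.05 for endothelial genes and 1.27 for stromal genes. Over the fits without 1 library, medians ran from -3.03 to -2.68 for B-cell specification genes, -2.06 to -1.48 for tissue macrophage genes, -0.78 to -0.13 for red-cell membrane and hemoglobin genes, -0.26 to -0.16 for erythroid and megakaryocyte transcription factors, -0.16 to 0.085 for heme synthesis and iron uptake genes, -0.67 to -0.56 for cytokine receptors, -1.26 to -0.95 for interferon-stimulated genes, 0.10 to 0.17 for nonsense-mediated decay factors, 0.14 to 0.27 for glycolysis enzymes, -2.84 to -1.77 for T and NK cell genes, -0.34 to 0.94 for stromal genes, -0.022 to 0.052 for genes with 1 exon, -0.42 to -0.24 for lincRNA genes and -0.46 to -0.25 for antisense genes. Of the named genes, Slc4a1, not called with all libraries, ran from -0.71 without heterozygous library 4 to a called 0.72 without heterozygous library 3 (adjusted p = 0.00176). Ptprc and Cpa3, not called without a covariate, were called lower with the hepatocyte score as covariate (adjusted p = 0.0201 and 0.00754). Of 131 named genes that were called, 122 kept the call whichever library was left out and 115 under all settings. The cause of these shifts was not tested.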

Other observations

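Several of the largest rises by fold lay in genes that belong to none of the lists. Pdyn, the prodynorphin gene, was at 0.766, 0.679 and 0.888 CPM in heterozygous and 8.24, 15.0 and 10.3 CPM in homozygous libraries (log2 fold change 3.84 ± 0.26, adjusted p = 6.41e-06). Gsdmc4, a member of the pore-forming gasdermin family, was at 0.0333, 0.118 and 0.121 CPM in heterozygous and 2.90, 2.44 and 1.94 CPM in homozygous libraries (log2 fold change 4.68 ± 0.59, adjusted p = 0.000171), and Colec11, a secreted lectin gene, at 0.216, 0.148 and 0.242 CPM in heterozygous and 3.88, 1.98 and 2.39 CPM in homozygous libraries (log2 fold change 3.75 ± 0.56, adjusted p = 0.000447). Cyp11a1, the first enzyme of steroid synthesis, was at 3.70, 2.35 and 1.80 CPM in heterozygous and 13.5, 31.5 and 39.8 CPM in homozygous libraries (log2 fold change 3.44 ± 0.56, adjusted p = 0.000768), and its reads cannot be told from those of the overlapping gene Gm17322. Alox8, a lipoxygenase gene, changed by 3.91 ± 0.59. In all 5, the homozygous values were above every other library of the batch. Among the largest falls outside the B-cell and macrophage lists were Klrk1, the receptor NKG2D (1.95, 1.79 and 1.88 CPM in heterozygous and 0.0406, 0.0495 and 0 CPM in homozygous libraries; log2 fold change -5.68 ± 0.48, adjusted p = 2.18e-05), and Slamf6, a lymphocyte adhesion receptor (log2 fold change -5.63 ± 0.77, adjusted p = 0.000283).

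T and NK cell genes gave 1 rise and 4 falls among 7 tested, and the riser Nkg7, a granule membrane gene, was at 69.3, 76.5 and 61.6 CPM in heterozygous and 135, 180.4 and 177 CPM in homozygous libraries (log2 fold change 1.25 ± 0.17, adjusted p = 0.000288). By level, the largest losses of CPM included H2afy, a macroH2A histone gene (1351, 1253 and 1272 CPM in heterozygous and 851, 852 and 747 CPM in homozygous libraries; log2 fold change -0.66 ± 0.10, adjusted p = 0.000541), Zfp36l2, an RNA-binding regulator of messenger decay (log2 fold change -0.66 ± 0.078, adjusted p = 0.000124), and the integrin gene Itga4 (log2 fold change -0.70 ± 0.085, adjusted p = 0.000141). Of 201 lincRNA genes tested, 24 (11.9%) were called lower and 7 (3.48%) higher. Of 228 antisense genes, 23 (10.1%) were lower and 9 (3.95%) higher. Median heterozygous levels of these classes were 0.318 and 0.338 CPM. Their shares were below the 22.4% lower and 19.8% higher of all genes.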
